A study of Homo sapiens with 9 samples.

Results

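The 34 genes described here make the enzymes and regulators of cholesterol and fatty acid synthesis, out of 42717 genes in the count table. They were taken by name from a list of 7 mevalonate pathway enzymes, 10 sterol pathway enzymes, 4 genes of SREBP control, 4 genes of the LXR arm and sterol handling, and 9 genes of fatty acid synthesis and desaturation. RNA of 3 sublines of the human pancreatic ductal adenocarcinoma line SUIT-2 was sequenced, with 3 libraries each of S2-007, S2-020 and S2-028. All of the cells were maintained in DMEM with fetal bovine serum, and no drug, transgene or knockdown was named for any of the 9 libraries. The study describes S2-007 as panMaspin, with the tumour suppressor maspin in nucleus and cytoplasm, and S2-028 as cytMaspin, with maspin in the cytoplasm. In S2-020 it found maspin protein to be weak. The labels do not say whether the libraries of a line came from separate cultures, so p-values here measure the spread between these libraries, which may be technical. Each line is a single line, so a difference between lines cannot be told apart from any other property of those lines.

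Cholesterol is built from acetyl-CoA by way of mevalonate, farnesyl diphosphate, squalene and lanosterol. Fatty acids are built from the same acetyl-CoA by carboxylation, chain assembly, elongation and desaturation. The SREBP transcription factors switch on both branches when sterols in the endoplasmic reticulum are low, because the escort protein SCAP then carries them to the Golgi to be cut, whereas INSIG proteins hold them back when sterols are plentiful. The liver X receptors (LXR) act in the opposite situation, when oxysterols are plentiful, and turn on sterol export. Cultured cells take lipoproteins from serum, and many cancer lines synthesize lipids as well.

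Library totals lay between 60328748 and 86253923 counts, and levels are given as CPM, the counts of a gene scaled to its library total and adjusted by the TMM method. All 34 genes passed the filter on low counts in every comparison, the lowest being HSD17B7 at 6.61 CPM in 1 S2-028 library. Cells of all 3 lines expressed epithelial markers, with a summed level of 9959 to 10288 CPM in S2-007, 4435 to 5580 CPM in S2-020 and 15163 to 18032 CPM in S2-028 over 8 genes. CDH1, the adhesion protein E-cadherin, averaged 55.0, 4.50 and 112 CPM in that order. Of the 8 epithelial markers, 5 were higher and 3 lower in S2-028 than in S2-007. The lower ones were EPCAM (420 against 534 CPM), KRT19 (1927 against 2150 CPM) and ELF3 (105 against 223 CPM). In S2-020 all 8 were lower than in S2-007, and 7 were lower than in S2-028, with ELF3 higher. KRT8 (2885 CPM) and KRT18 (1667 CPM) made up most of the S2-020 sum. KRT19 averaged 102 CPM there against 2150 CPM in S2-007, and CLDN7 1.07 against 30.1 CPM. The 8 fibroblast markers together stayed at or below 6.57 CPM, the 4 endothelial ones at or below 9.90 CPM and the 5 acinar ones at or below 1.07 CPM. Leukocyte markers summed to 338 to 419 CPM in S2-007 and to 11.7 to 14.7 CPM elsewhere, and LYZ alone averaged 337 CPM in S2-007 while PTPRC averaged 0.304 CPM there. Proliferation markers summed to 2193 to 2257 CPM in S2-007, 2280 to 2473 CPM in S2-020 and 2474 to 2585 CPM in S2-028. The part of these line differences in the results below was not tested. Within S2-028, replicate 2 stood apart for several of the 34 genes, most of all INSIG1, and results that rest on it are given with and without it.

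Short stretches before transcription starts are shown first, because the SREBP proteins bind a core element next to NF-Y and Sp1 sites in promoters of this pathway. RefSeq windows of 300 bases, from 250 before a start to 50 after it on GRCh38.p14, were matched for 30 of the 34 genes. ACAT2, FDFT1, SQLE and FASN had no entry. The SREBP element core TCACNCCAC, searched on both strands, was in a window of 1 of the 30 genes (3.33%), SREBF2, against 379 of all 27305 genes with a window (1.39%). The E-box CACGTG, to which SREBP proteins also bind, was in windows of 4 of 30 (13.3%), namely INSIG1, LSS, SC5D and SCAP, against 8.77% of all genes. The NF-Y motif CCAAT was in windows of 24 of 30 (80.0%) against 39.7% of all genes, and it was found in all 8 sterol pathway genes with a window. The Sp1 motif GGGCGG was in windows of 29 of 30 (96.7%) against 48.3%. Matches of CCAAT and GGGCGG were also counted on both strands, and genes with several starts had several windows. Counted by window, CCAAT was in 63.6% of those of the members against 34.6% of all, and GGGCGG in 84.1% against 45.0%. The set of all genes was not matched to the members for expression or base composition. These are matches of letters only.

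The examples below are SREBF2 as the one gene with the SREBP core, INSIG1 as the gene that varied most within a line, HMGCS1 and LSS as enzymes that varied beside it, and ACSS2 as the gene with the largest difference between lines. Capitals mark the match, which reads as ATTGG where CCAAT lies on the opposite strand, and each run is given 5′ to 3′ on the strand of its gene. SREBF2, on the plus strand at chr22:41832957-41832995, has its core from position -133, counted from -1 at the base before the start. INSIG1, on the plus strand, has its E-box from position -55 (chr7:155297811-155297840) and a CCAAT match from position -170 (chr7:155297696-155297724). HMGCS1, on the minus strand, has CCAAT from position -100 (chr5:43313496-43313524), and LSS, also on the minus strand, from position -150 (chr21:46228908-46228936). ACSS2, on the plus strand, has CCAAT from position -123 (chr20:34874854-34874882).
SREBF2 core: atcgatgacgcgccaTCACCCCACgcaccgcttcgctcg
INSIG1 E-box: gccgggcaggctCACGTGatgcgggccccg
INSIG1 CCAAT: cgccggcctcccATTGGttgcggccgcct
HMGCS1 CCAAT: ctaccggccgcgATTGGctgtgggagcca
LSS CCAAT: cgcggcgctctgATTGGttgcgtgggcgt
ACSS2 CCAAT: gccctccttgggATTGGgcagactctcgg

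The genes of both branches were expressed in all 3 lines. The 34 genes together reached 3174 ± 24.9 CPM in S2-007, 3634 ± 154 CPM in S2-020 and 2911 ± 108 CPM in S2-028 (SD, n = 3), and the ranges of the lines did not overlap. FASN and SCD hold a large share of these sums. The 9 fatty acid genes summed to 1876 ± 31.4, 2329 ± 124 and 1683 ± 53.0 CPM in the same order. The 7 mevalonate genes summed to 300 ± 10.8, 313 ± 3.64 and 262 ± 10.7 CPM, so that S2-028 was lowest for both. The 10 sterol genes were instead lowest in S2-007, at 459 ± 9.54 CPM. Their sums in S2-020 and S2-028, 504 ± 10.4 and 514 ± 21.7 CPM, overlapped. The S2-020 libraries lay at 492 to 511 CPM. In S2-028, replicate 2 was at 539 CPM and replicates 1 and 3 were at 501 CPM. The mean of the line with the highest level was 1.52 times that of the line with the lowest at the median gene, and 3.14 times at the most for ACSS2. S2-007 was highest for 10 genes, S2-020 for 15 and S2-028 for 9.

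**Figure D1:**
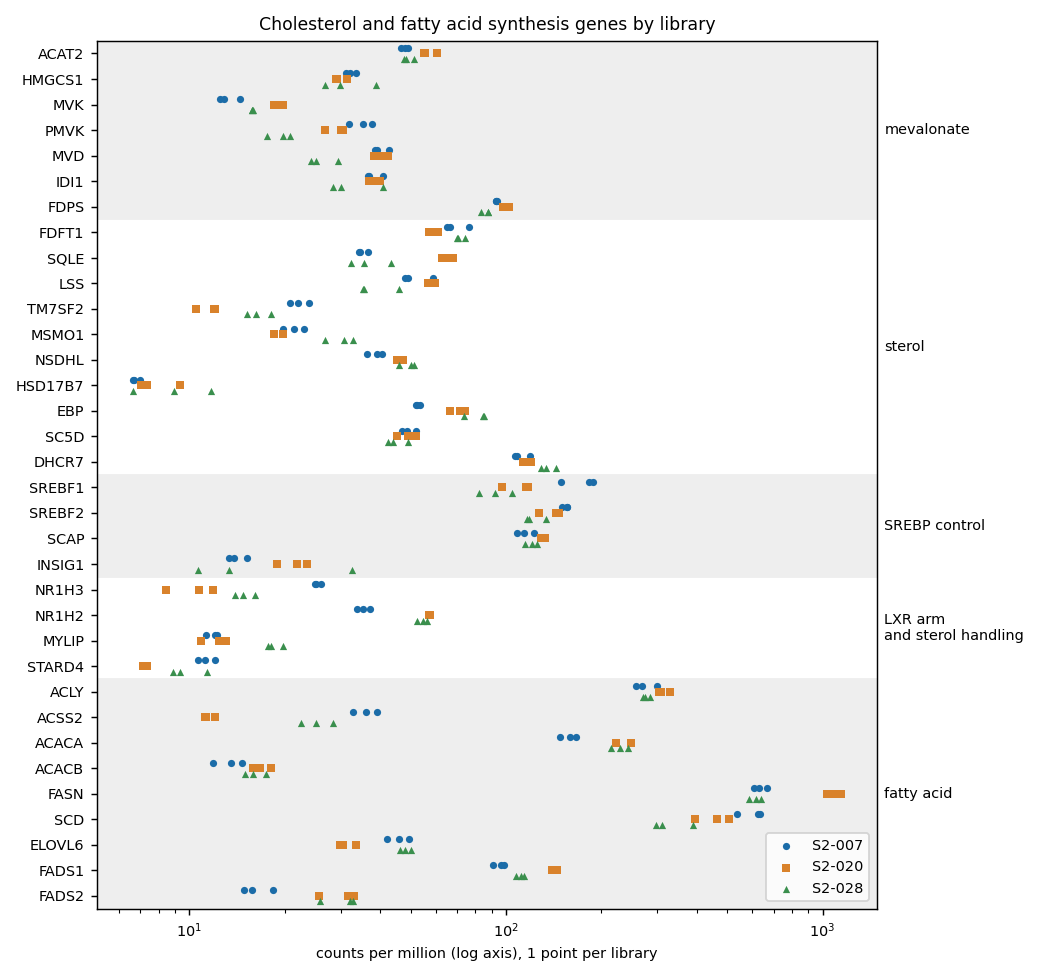
Level of each of the 34 genes in CPM (log axis), 1 point per library, with S2-007 as circles, S2-020 as squares and S2-028 as triangles and the genes grouped by role. Most genes sit close together in all lines, while SQLE and FASN are set higher in S2-020, ACSS2 and NR1H3 lower in S2-020, and 1 of the 3 INSIG1 points of S2-028 lies at 32.7 CPM.

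A gene was called when its Benjamini-Hochberg adjusted p in edgeR's quasi-likelihood test was under 0.05 over all genes tested and its fold change was at least about 1.5-fold in either direction, the threshold of the study. In S2-028 (cytMaspin) against S2-007 (panMaspin), 4 of the 34 genes were upregulated (EBP, NR1H2, MYLIP and FADS2), beside 10.2% of all 26371 genes tested. Another 4 were downregulated (PMVK, SREBF1, NR1H3 and SCD), beside 8.19% of all genes. Their median log2 fold change was 0.07 against 0.00 over all genes. For 21 of 34 the libraries of both lines did not overlap, beside 43.7% of all genes. In S2-020 against S2-007, 6 were higher (SQLE, INSIG1, NR1H2, ACACA, FASN and FADS2), beside 9.57%, and 5 were lower (TM7SF2, SREBF1, NR1H3, STARD4 and ACSS2), beside 12.1%. The median log2 fold change was 0.09 against -0.05 over all 26657 genes, and libraries did not overlap for 27 of 34 genes, beside 48.8%. In S2-028 against S2-020, 4 were higher (MSMO1, MYLIP, ACSS2 and ELOVL6), beside 12.1%, and 5 were lower (PMVK, MVD, SQLE, LSS and FASN), beside 10.1%. The median was -0.10 against 0.02 over all 26031 genes, and 22 of 34 did not overlap, beside 48.6%. As shares of the 34 genes, the calls made up 11.8% to 17.6% in each direction, and a single gene is 2.94%. The comparisons share libraries, so they are not independent of each other. Of the 34 genes, 15 were called in none, 10 in 1 and 9 in 2 of them.

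**Figure D2:**
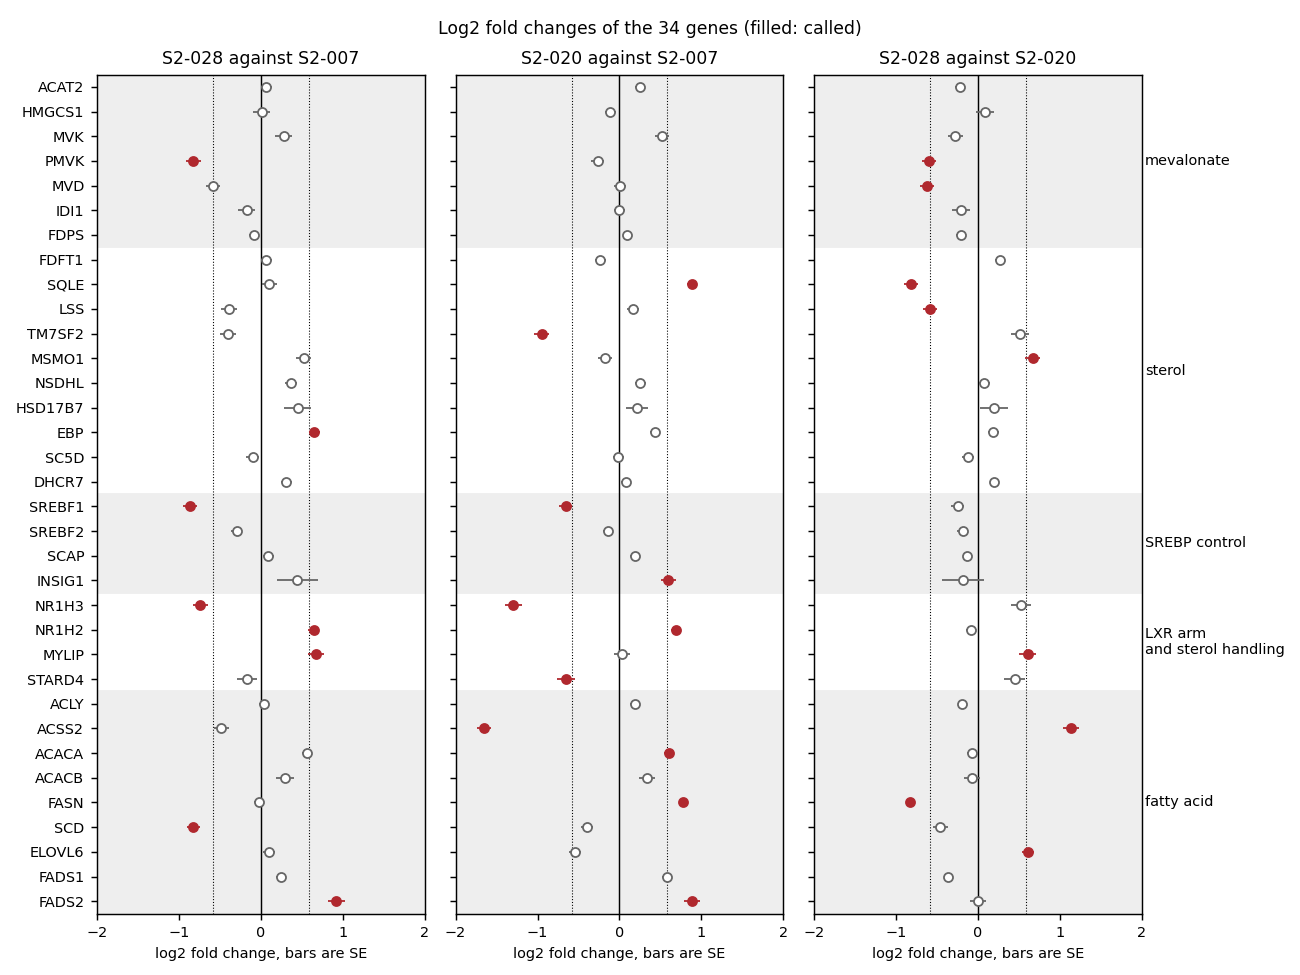
Log2 fold change of each gene in the 3 comparisons, first line against second, with bars of 1 SE and dotted lines at the fold threshold in either direction, filled where called. The calls fall on both sides of 0 in every panel. Over the panels they do so in every role except the mevalonate genes, whose calls are all lower in S2-028.

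Among the mevalonate enzymes, the calls were of PMVK and MVD, which were lower in S2-028. PMVK, which adds the second phosphate to mevalonate, stood at 31.8, 35.4 and 37.8 CPM in S2-007, at 26.8, 30.0 and 30.5 CPM in S2-020 and at 20.8, 17.6 and 19.8 CPM in S2-028. No value of one line reached into the range of another, and S2-028 was lowest. PMVK was lower in S2-028 by a log2 fold change of -0.83 ± 0.09 (SE) against S2-007 (adjusted p = 1.99e-07) and of -0.59 ± 0.09 against S2-020 (adjusted p = 1.51e-05). The latter call was lost without S2-028 replicate 2 (-0.52), S2-020 replicate 2 (-0.57) or S2-020 replicate 3 (-0.56). MVD, which decarboxylates mevalonate diphosphate, stood at 39.0, 38.4 and 42.7 CPM in S2-007 and at 38.2, 40.0 and 42.5 CPM in S2-020, and at 25.1, 29.5 and 24.2 CPM in S2-028. All S2-028 libraries were below all others. MVD was lower in S2-028 than in S2-020 by -0.62 ± 0.09 (adjusted p = 5.60e-06), whereas against S2-007 its value of -0.58 ± 0.09 (adjusted p = 1.11e-05) fell just short of the fold threshold. Without S2-028 replicate 3 or S2-020 replicate 3 the former was -0.56 or -0.58 and not called, and without S2-028 replicate 2, S2-007 replicate 1 or S2-007 replicate 2 the latter was -0.69, -0.60 or -0.61 and called. The 50 tested genes nearest to MVD on chromosome 16 had a median of -0.71 in S2-028 against S2-020, with 24 of them called lower and 0 higher by the same edgeR rule.

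The other 5 mevalonate genes were not called in any comparison. MVK, which phosphorylates mevalonate, ranged from 12.5 to 19.7 CPM over the 9 libraries and reached 0.52 ± 0.09 in S2-020 against S2-007 (adjusted p = 8.79e-05), or 0.62 and called without S2-007 replicate 3. HMGCS1, which makes HMG-CoA, had log2 fold changes of 0.01, -0.11 and 0.09 in S2-028 against S2-007, S2-020 against S2-007 and S2-028 against S2-020. IDI1, the isopentenyl diphosphate isomerase, gave -0.18, 0.00 and -0.21 in that order. In S2-028 it stood at 28.4, 41.0 and 30.1 CPM, the highest being replicate 2, and at 36.6 to 41.0 CPM in S2-007. With 1 library left out, the S2-028 values of IDI1 went as low as -0.37 against S2-007 and -0.38 against S2-020. FDPS, which joins isoprenoid units into farnesyl diphosphate, stayed between 83.3 and 102 CPM in all libraries, and ACAT2, a thiolase that makes acetoacetyl-CoA, between 46.5 and 60.4 CPM. With all libraries kept, HMGCS1 and IDI1 passed an adjusted p of 0.05 in no comparison, and SC5D was the third gene of the 34 of which this held.

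By mean level, 6 of the 10 sterol enzymes were highest in S2-028, while SQLE and LSS were highest in S2-020 and TM7SF2 and SC5D in S2-007. Of the 6, MSMO1, EBP and DHCR7 passed an adjusted p of 0.05 against both other lines. FDFT1 did not against S2-007 (0.07, adjusted p = 0.537). Neither did NSDHL (0.08, adjusted p = 0.425) or HSD17B7 (0.19, adjusted p = 0.423) against S2-020. SQLE, which puts the epoxide on squalene and limits the rate of this arm, stood at 34.4, 34.5 and 36.7 CPM in S2-007, at 64.2, 68.1 and 62.6 CPM in S2-020 and at 35.6, 43.2 and 32.4 CPM in S2-028. Every S2-020 library was above every library of the other lines. SQLE was higher in S2-020 by 0.88 ± 0.06 against S2-007 (adjusted p = 3.71e-10), and in S2-028 it was lower than in S2-020 by -0.82 ± 0.09 (adjusted p = 2.20e-07). LSS, which closes the ring to lanosterol, stood at 47.9, 49.1 and 58.7 CPM in S2-007, 59.7, 58.1 and 56.8 CPM in S2-020, and 35.4, 45.8 and 35.5 CPM in S2-028. The S2-028 libraries were the lowest, and LSS was lower than in S2-020 by -0.59 ± 0.09 (adjusted p = 1.56e-05), at the edge of the fold threshold. It was not called without S2-028 replicate 1 (-0.52), without S2-028 replicate 3 (-0.52) or without S2-020 replicate 1 (-0.57), nor with a minimum of 10 counts in every library (-0.58) or upper-quartile normalization (-0.53).

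TM7SF2, a sterol C14 reductase, was lowest in S2-020. It stood at 23.8, 20.7 and 22.1 CPM in S2-007, 11.9, 12.1 and 10.5 CPM in S2-020, and 18.1, 16.2 and 15.2 CPM in S2-028, so that each line kept its own range. The log2 fold change of S2-020 against S2-007 was -0.95 ± 0.09 (adjusted p = 5.60e-08). Its 50 nearest tested genes on chromosome 11 had a median of -0.45 in the same comparison, with 18 called lower and 0 higher.

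MSMO1, which oxidizes methyl groups on the sterol ring, was highest in S2-028. EBP, which moves a double bond of the ring, was highest there by mean level. MSMO1 stood at 22.9, 21.4 and 19.8 CPM in S2-007, at 19.7, 18.4 and 18.5 CPM in S2-020, and at 26.7, 32.9 and 30.7 CPM in S2-028. It was higher in S2-028 than in S2-020 by 0.67 ± 0.09 (adjusted p = 4.89e-06), and its 0.52 ± 0.09 against S2-007 was under the fold threshold, or 0.60 and called without S2-028 replicate 1. EBP stood at 53.5, 52.0 and 52.2 CPM in S2-007, at 74.1, 66.6 and 71.7 CPM in S2-020, and at 85.1, 73.4 and 84.5 CPM in S2-028. The S2-007 libraries were below all others, and EBP was higher in S2-028 than in S2-007 by 0.65 ± 0.07 (adjusted p = 1.13e-07). Against S2-020 its 0.19 ± 0.07 (adjusted p = 0.0289) was under the fold threshold, and the libraries overlapped.

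The remaining sterol genes had smaller differences. NSDHL, which works beside MSMO1, was higher than in S2-007 by 0.36 in S2-028 and by 0.25 in S2-020, and DHCR7, the last reductase of one branch, by 0.31 in S2-028 and by 0.08 in S2-020. FDFT1, the squalene synthase, was lowest in S2-020, at 57.3 to 60.9 CPM against 65.1 to 76.7 CPM in S2-007. SC5D, a desaturase near the end of the pathway, lay between 42.3 and 52.1 CPM in every library. HSD17B7, a ketoreductase of the sterol ring, ranged from 6.61 to 11.7 CPM within S2-028 alone. Against S2-007 it gave 0.45 ± 0.16 (adjusted p = 0.0408), or 0.63 and called without S2-028 replicate 3, and 65.6% of the 31-base words of its transcript also occur in other genes, mainly HSD17B7P2.

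Of the SREBP control genes, SREBF1 was lower in both other lines than in S2-007, and INSIG1 was higher in S2-020. SREBF1, whose products drive mainly the fatty acid genes, stood at 188, 182 and 149 CPM in S2-007, at 117, 116 and 96.8 CPM in S2-020, and at 92.6, 104 and 81.9 CPM in S2-028. No library of the other lines reached the lowest S2-007 library. The log2 fold change was -0.87 ± 0.09 in S2-028 (adjusted p = 5.40e-08) and -0.66 ± 0.08 in S2-020 (adjusted p = 1.17e-06). In S2-020 it fell under the fold threshold without S2-007 replicate 1 (-0.58) or without S2-020 replicate 3 (-0.57), and the 50 tested genes nearest to SREBF1 had a median of -0.43 there. SREBF2, whose product drives mainly the cholesterol genes, differed less, at -0.30 ± 0.06 in S2-028 (adjusted p = 8.10e-04) and -0.14 ± 0.06 in S2-020 (adjusted p = 0.0574) against S2-007. SCAP ranged from 108 to 132 CPM over all libraries. Per kilobase of transcript, SREBF1 was at 1.204 ± 0.158 times the level of SREBF2 in S2-007, 0.842 ± 0.0280 times in S2-020 and 0.807 ± 0.0482 times in S2-028 (SD, n = 3).

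INSIG1, which retains the SREBP complex in the endoplasmic reticulum and is itself switched on by SREBP, stood at 15.2, 13.9 and 13.3 CPM in S2-007 and at 23.5, 21.8 and 18.9 CPM in S2-020. In S2-028 it stood at 13.4, 32.7 and 10.6 CPM. S2-020 was above S2-007 in every library, by 0.60 ± 0.10 (adjusted p = 3.20e-05), and the call was lost without S2-020 replicate 1 (0.53) and with upper-quartile normalization (0.58). The S2-028 libraries lay on both sides of the others. Against S2-007 the value of S2-028 was 0.45 ± 0.25 (adjusted p = 0.198), and without S2-028 replicate 2 it was -0.22. It was 0.73 and called without S2-028 replicate 3. Against S2-020 it was -0.18 ± 0.26 (adjusted p = 0.645), and without S2-028 replicate 2 it was -0.83 (adjusted p = 3.27e-05), a called difference.

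S2-028 replicate 2 was examined gene by gene for this reason, after its INSIG1 level had been seen. Its INSIG1 level was 2.72 times the mean of S2-028 replicates 1 and 3, and of 11814 genes with a mean of at least 5 CPM in S2-028, INSIG1 itself was the gene with the highest such ratio. The next genes of the list were IDI1 at 1.40 times, HMGCS1 at 1.37 times, LSS at 1.29 times, SCD at 1.28 times, SQLE at 1.27 times and STARD4 at 1.25 times. Thus 7 of the 34 genes (20.6%) were over 1.2 times, beside 5.02% of the 11814 genes. At the other end, FADS2 was at 0.794 times, EBP at 0.866 times and PMVK at 0.867 times. In no other library were more than 1 of the 34 genes over 1.2 times the mean of the remaining libraries of its line. The total count of this library, 61237397, was between those of the other S2-028 libraries, and what set it apart was not tested. Without it, 5 of the 34 genes were called higher and 5 lower in S2-028 against S2-007, and 4 higher and 5 lower against S2-020. Over all genes tested, 4828 and 5635 were then called, beside 4858 and 5788 with it. Among the genes lower than in S2-020, PMVK lost its call (-0.52) and INSIG1 gained one (-0.83).

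**Figure D3:**
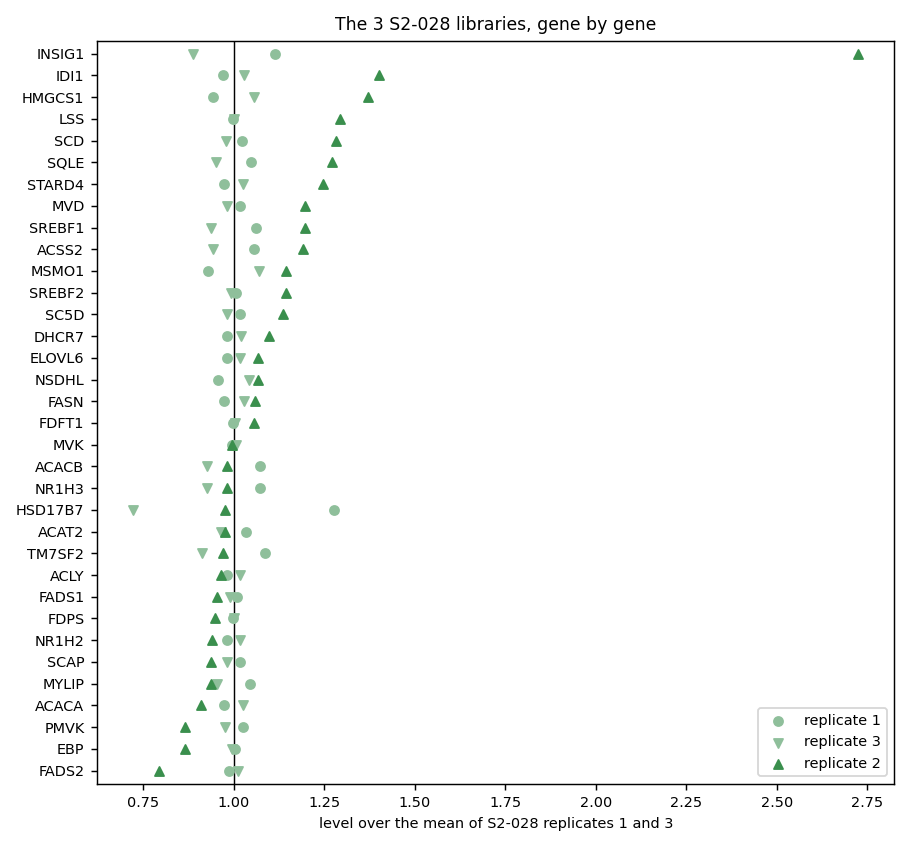
Level of each gene in S2-028 replicates 1 (circles), 2 (dark triangles) and 3 (inverted triangles) over the mean of replicates 1 and 3, sorted by replicate 2. INSIG1 is at 2.72 in replicate 2, and IDI1, HMGCS1, LSS, SCD, SQLE and STARD4 follow between 1.25 and 1.40.

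In the LXR arm, the genes of the receptors NR1H3 and NR1H2 were called in opposite directions. NR1H3, which encodes LXRα, stood at 26.0, 25.1 and 24.9 CPM in S2-007, 8.43, 10.7 and 11.8 CPM in S2-020, and 16.1, 14.7 and 13.9 CPM in S2-028. The lines did not overlap, and the order was S2-007, S2-028, S2-020. NR1H3 was lower than in S2-007 by -1.29 ± 0.11 in S2-020 (adjusted p = 4.01e-09) and by -0.74 ± 0.09 in S2-028 (adjusted p = 1.22e-06). Between S2-028 and S2-020 its 0.52 ± 0.12 (adjusted p = 0.00178) was not called, and was called at 0.63 without S2-020 replicate 3. NR1H2, which encodes the widely expressed LXRβ, stood at 37.2, 33.8 and 35.4 CPM in S2-007, 57.1, 57.6 and 57.5 CPM in S2-020, and 54.5, 52.2 and 56.4 CPM in S2-028. It was higher than in S2-007 by 0.69 ± 0.06 in S2-020 (adjusted p = 1.38e-08) and by 0.64 ± 0.07 in S2-028 (adjusted p = 2.33e-07). Per kilobase, NR1H3 was thus at 0.933 ± 0.0311 times the level of NR1H2 in S2-007, and at 0.235 ± 0.0386 times in S2-020 and 0.358 ± 0.0325 times in S2-028. The 50 tested genes nearest to NR1H2 on chromosome 19 had a median of 0.46 in S2-028 against S2-007, with 13 called higher and 0 lower. In S2-020 against S2-007 their median was 0.22, with 9 called higher and 4 lower. Those nearest to NR1H3 on chromosome 11 had a median of -0.32 in S2-020 against S2-007, with 9 called lower and 2 higher. In S2-028 against S2-007 it was -0.15, with 6 called lower and 3 higher. Over all 28 called differences of the 34 genes, such medians ranged from -0.71 to 0.46. In 18 of the 28 the median had the sign of the gene itself.

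MYLIP, an LXR target that encodes a ubiquitin ligase for lipoprotein receptors, was highest in S2-028. It stood at 12.1, 12.2 and 11.3 CPM in S2-007, at 13.0, 12.4 and 10.8 CPM in S2-020, and at 19.8, 17.7 and 18.1 CPM in S2-028, all above every other library. The log2 fold change was 0.67 ± 0.10 against S2-007 (adjusted p = 1.29e-05) and 0.61 ± 0.10 against S2-020 (adjusted p = 5.28e-05). Without S2-020 replicate 3 or S2-028 replicate 1 the last value was 0.53 or 0.56 and was not called. Against S2-007 its 50 nearest tested genes had a median of 0.35. STARD4, a cytosolic sterol carrier, stood at 12.1, 10.7 and 11.2 CPM in S2-007, at 7.14, 7.33 and 7.11 CPM in S2-020, and at 8.89, 11.4 and 9.35 CPM in S2-028. The S2-020 libraries were the lowest, by -0.65 ± 0.11 against S2-007 (adjusted p = 6.29e-05).

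**Figure D4:**
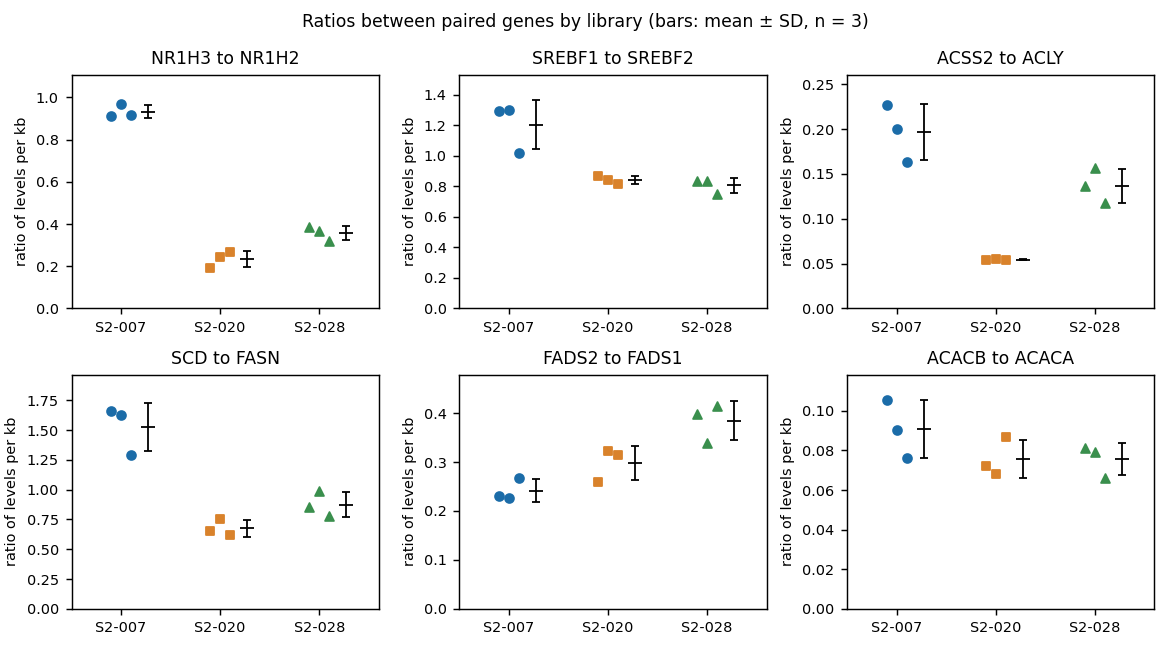
Ratio of levels per kilobase of transcript between 6 pairs of related genes in each library (points), with the mean and SD of the 3 libraries of a line beside them. NR1H3 to NR1H2 and SCD to FASN are highest in S2-007, ACSS2 to ACLY is lowest in S2-020, and FADS2 to FADS1 is lowest in S2-007 by mean, while ACACB to ACACA overlaps between lines.

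In the fatty acid branch, the genes that supply acetyl-CoA and those that build the chain differed in separate ways. ACSS2, which makes acetyl-CoA from acetate, stood at 39.2, 36.2 and 32.9 CPM in S2-007, at 12.04, 11.3 and 11.2 CPM in S2-020, and at 25.2, 28.4 and 22.5 CPM in S2-028. The lines did not overlap. ACSS2 was lower in S2-020 than in S2-007 by -1.65 ± 0.09 (adjusted p = 3.23e-12), the largest difference of the 34 genes, and higher in S2-028 than in S2-020 by 1.13 ± 0.10 (adjusted p = 1.70e-08). ACLY, which makes acetyl-CoA from citrate, differed by at most 0.19 between lines. Per kilobase, ACSS2 was at 0.197 ± 0.0317 times the level of ACLY in S2-007, 0.0545 ± 5.02e-04 times in S2-020 and 0.136 ± 0.0193 times in S2-028.

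ACACA and FASN, which carboxylate acetyl-CoA and build palmitate, were higher in S2-020 than in S2-007. FASN stood at 608, 630 and 669 CPM in S2-007, at 1145, 1088 and 1029 CPM in S2-020, and at 585.0, 637 and 618 CPM in S2-028. The S2-020 libraries were above all others, whereas S2-007 and S2-028 overlapped, with a difference of -0.02 ± 0.06. FASN was higher in S2-020 than in S2-007 by 0.78 ± 0.05 (adjusted p = 1.19e-10) and lower in S2-028 than in S2-020 by -0.83 ± 0.05 (adjusted p = 6.28e-11). ACACA stood at 149, 160 and 166 CPM in S2-007, at 248, 248 and 223 CPM in S2-020, and at 230, 214 and 242 CPM in S2-028. Its 0.60 ± 0.06 in S2-020 against S2-007 (adjusted p = 4.05e-08) was called, while its 0.56 ± 0.06 in S2-028 (adjusted p = 3.27e-07) fell short of the fold threshold. Both values crossed the threshold when 1 library was left out. The former was 0.57 to 0.58 and lost without S2-007 replicate 1, S2-020 replicate 1 or S2-020 replicate 2, and the latter was 0.59 and gained without S2-007 replicate 3 or S2-028 replicate 2. The difference of ACACA between S2-028 and S2-020 was -0.07 ± 0.06. ACACB, the mitochondrial form, was between 11.9 and 18.1 CPM in all libraries and was not called.

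SCD, which puts the double bond into stearate and palmitate, was lower in S2-028. It stood at 626, 635 and 538 CPM in S2-007, at 465, 508 and 394 CPM in S2-020, and at 311, 390 and 297 CPM in S2-028. The S2-028 libraries were below all others, and SCD was lower than in S2-007 by -0.82 ± 0.08 (adjusted p = 7.19e-08), or by -0.96 without S2-028 replicate 2. In S2-020 it was lower by -0.40 ± 0.08 (adjusted p = 2.19e-04), under the fold threshold. Per kilobase, SCD was at 1.53 ± 0.202 times the level of FASN in S2-007, 0.675 ± 0.0695 times in S2-020 and 0.873 ± 0.106 times in S2-028. SCD was the highest of the 34 genes per kilobase in S2-007, and FASN in S2-020 and S2-028.

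ELOVL6, which lengthens palmitate to stearate, stood at 45.8, 49.4 and 42.2 CPM in S2-007, at 33.6, 30.6 and 29.9 CPM in S2-020, and at 46.2, 50.3 and 47.9 CPM in S2-028. The S2-020 libraries were the lowest, by -0.55 ± 0.07 against S2-007 (adjusted p = 3.89e-06, under the fold threshold), and S2-028 was higher than S2-020 by 0.61 ± 0.07 (adjusted p = 8.92e-07). Without S2-020 replicate 3 the last value was 0.58 and was not called, and without S2-020 replicate 1 the former was -0.60 and called. FADS2, the delta-6 desaturase that starts the polyunsaturated branch, was higher in both other lines than in S2-007. It stood at 14.9, 15.8 and 18.3 CPM in S2-007, at 25.6, 33.1 and 31.6 CPM in S2-020, and at 32.2, 25.8 and 32.9 CPM in S2-028. The log2 fold change against S2-007 was 0.92 ± 0.10 in S2-028 (adjusted p = 3.59e-07) and 0.88 ± 0.10 in S2-020 (adjusted p = 4.37e-07). Both lines overlapped each other, with a difference of 0.00 ± 0.10. FADS1, the delta-5 desaturase encoded beside FADS2, was highest in S2-020, at 140 to 145 CPM against 91.0 to 98.2 CPM in S2-007, and its 0.58 ± 0.05 (adjusted p = 1.82e-08) lay just under the fold threshold. It was called at 0.59 to 0.62 without S2-020 replicate 1, S2-007 replicate 2 or S2-007 replicate 3. The 50 tested genes nearest to FADS2 had a median of -0.09 in S2-028 against S2-007.

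Gene models limit some of these counts, since the counting tool and its strand setting are not given in the sources used here. Exons of other genes on the opposite strand cover 46.7% of the HMGCS1 transcript, 41.4% of FDPS, with RUSC1-AS1 as the main partner, and 36.3% of ACAT2. EBP shares 57.1% of its transcript with exons of ENSG00000286268 on its own strand. Among genes called, TM7SF2, SQLE, MVD, PMVK, INSIG1, NR1H3, NR1H2, MYLIP, ACSS2 and ACACA had no exon overlap with other genes and shared no 31-base word with them. SCD shared 13.4% of its words with other genes, mainly ENSG00000264215.

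Further lipid genes were set beside the 34, in 8 lists. Among 8 LXR targets and partners, 5 were lower and 0 higher in S2-028 against S2-007, beside the 8.19% and 10.2% of all genes. The list holds none of the 34 genes, and so leaves out any LXR target among them. MYLIP, an LXR target of the 34, was called higher in S2-028, at 0.67 against S2-007 and 0.61 against S2-020. Which others of the 34 respond to LXR was not examined. In S2-028 against S2-007, 4 of the 34 were called higher, with MYLIP, and 4 lower, with SREBF1 (-0.87) and SCD (-0.82). ABCG1, a sterol exporter, averaged 5.52 ± 1.58 CPM in S2-028 and 28.0 ± 4.35 CPM in S2-007 (SD, n = 3), a log2 fold change of -2.32 (adjusted p = 1.22e-10). RXRA, the partner receptor of LXR, was lower by -0.68 (adjusted p = 3.84e-09). In S2-020 against S2-007, 4 of the 8 were lower and 0 higher, with RXRA at -1.05 (adjusted p = 6.85e-13) and SMPDL3A, a phosphodiesterase, at -1.12 (adjusted p = 7.55e-10). In S2-028 against S2-020, 2 were lower and 0 higher, ABCA1 at -1.16 (adjusted p = 9.23e-04) and ABCG1 at -0.59 (adjusted p = 0.0308). The median log2 fold changes of the list were -0.65, -0.80 and -0.17, and ABCA1 was low in every line, at 6.11 ± 1.77 CPM in S2-007 and 1.34 ± 0.471 CPM in S2-028.

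The remaining sterol lists stand beside 10.2% of all genes higher and 8.19% lower in S2-028 against S2-007, 9.57% and 12.1% in S2-020 against S2-007, and 12.1% and 10.1% in S2-028 against S2-020. Of 12 further sterol and isoprenoid enzymes, 1 was lower in S2-028 against S2-007, COQ2 of the ubiquinone pathway at -0.64 (adjusted p = 5.96e-07). None was called in S2-020 against S2-007 by edgeR or by DESeq2, while 6 were higher and 2 lower at an unadjusted p under 0.05 in edgeR. The shares above are of called genes and do not apply to that count. At an adjusted p under 0.05 without the fold threshold, 5 were higher and 2 lower, beside 5346 and 5362 of all 26657 genes. Of 10 further genes of SREBP machinery, none was called in S2-028 against S2-007 by edgeR or by DESeq2, with 4 higher and 1 lower at an unadjusted p under 0.05 in edgeR. At an adjusted p under 0.05 without the fold threshold, 3 were higher and 1 lower, beside 4669 and 4258 of all 26371 genes. Between S2-020 and S2-007 the only edgeR call was INSIG2, the paralogue of INSIG1, which was lower in S2-020 than in S2-007 at -1.45 (adjusted p = 2.17e-11). It was higher in S2-028 than in S2-020 at 1.72 (adjusted p = 4.69e-12), and SEC23A of the COPII coat was lower at -0.68 (adjusted p = 1.25e-08). Of 13 genes of sterol transport and esterification, 1 was higher and 3 lower in S2-028 against S2-007, and LIPA, the lysosomal lipase, was lower there at -0.69 (adjusted p = 6.84e-08). SCARB1, a lipoprotein receptor, was lower at -0.64 (adjusted p = 2.13e-07). In S2-020, 2 were higher and 3 lower, with SOAT1, which esterifies cholesterol, at 0.98 (adjusted p = 1.20e-11) and LIPA at -0.78 (adjusted p = 5.48e-09). Between S2-028 and S2-020, 3 were higher in S2-028 and 2 lower, with GRAMD1A, a sterol carrier, at -1.42 (adjusted p = 9.58e-10) and SOAT1 at -0.79 (adjusted p = 1.02e-09).

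The fatty acid lists stand beside the same shares of all genes. These are 10.2% higher and 8.19% lower in S2-028 against S2-007, and 9.57% and 12.1% in S2-020 against S2-007. In S2-028 against S2-020 they are 12.1% and 10.1%. Each list is short, so the counts are of few genes. Against S2-007, more elongation genes were called higher than lower and more oxidation genes lower than higher. Supply genes were called in both directions in S2-020. Of 14 further genes of elongation and desaturation, 4 were higher and 0 lower in S2-028 against S2-007. ELOVL7, an elongase, averaged 36.5 ± 2.12 CPM against 7.24 ± 0.549 CPM, a log2 fold change of 2.36 (adjusted p = 3.23e-14), and HACD2, a dehydratase of the elongation cycle, was at 1.07 (adjusted p = 4.00e-12). In S2-020 against S2-007, 4 were higher and 1 lower, with ELOVL5 at 1.00 (adjusted p = 1.29e-11) and ELOVL7 at 1.39 (adjusted p = 1.19e-09). In S2-028 against S2-020, 3 were higher and 3 lower, and ELOVL2 was at 2.77 (adjusted p = 5.11e-11), while ELOVL4 averaged 6.56 CPM in S2-028 and 0.0778 CPM in S2-020. Of 9 tested genes of carbon and reducing supply, 3 were higher and 0 lower in S2-028 against S2-007, with CS, the citrate synthase, at 0.77 (adjusted p = 4.34e-10). In S2-020, 3 were higher and 2 lower, with CS at 0.85 (adjusted p = 2.21e-11) and ME1, the cytosolic malic enzyme, at 1.22 (adjusted p = 1.89e-10). Against S2-020, S2-028 had 2 higher and 1 lower, with ME1 at -0.67 (adjusted p = 3.70e-07).

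Of 15 genes of fatty acid activation, glycerolipid synthesis and storage, 4 were higher and 2 lower in S2-028 against S2-007, with ACSL4 at 1.08 (adjusted p = 2.81e-11) and AGPAT2 at -0.72 (adjusted p = 2.35e-08). In S2-020 against S2-007, 5 were higher and 2 lower, with ACSL5 at -0.95 (adjusted p = 7.89e-12) and PLIN2, a coat protein of lipid droplets, at 1.07 (adjusted p = 1.21e-09). Against S2-020, S2-028 had 2 higher and 5 lower, with ACSL5 at 1.33 (adjusted p = 3.40e-14) and PLIN3 at -0.70 (adjusted p = 3.61e-09). Of 15 tested genes of fatty acid oxidation, 6 were lower and 0 higher in S2-028 against S2-007 by edgeR, and 7 lower and 1 higher by DESeq2. CPT1A, the gate of mitochondrial oxidation, averaged 176 ± 4.19 CPM against 405 ± 20.7 CPM there, a log2 fold change of -1.17 (adjusted p = 8.93e-13), and PPARG, a nuclear receptor better known for lipid storage, was at -0.83 (adjusted p = 1.16e-09). In S2-020 against S2-007, 1 of 16 was higher and 5 lower, with PPARG at -0.99 (adjusted p = 2.76e-11) and PPARA, a receptor that switches on oxidation, at -1.06 (adjusted p = 9.43e-10). In S2-028 against S2-020, 1 of 16 was higher and 2 lower, namely FABP5, a fatty acid carrier, at -1.07 (adjusted p = 1.47e-08) and SLC25A20, the carnitine carrier, at -1.02 (adjusted p = 1.93e-08).

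**Figure D5:**
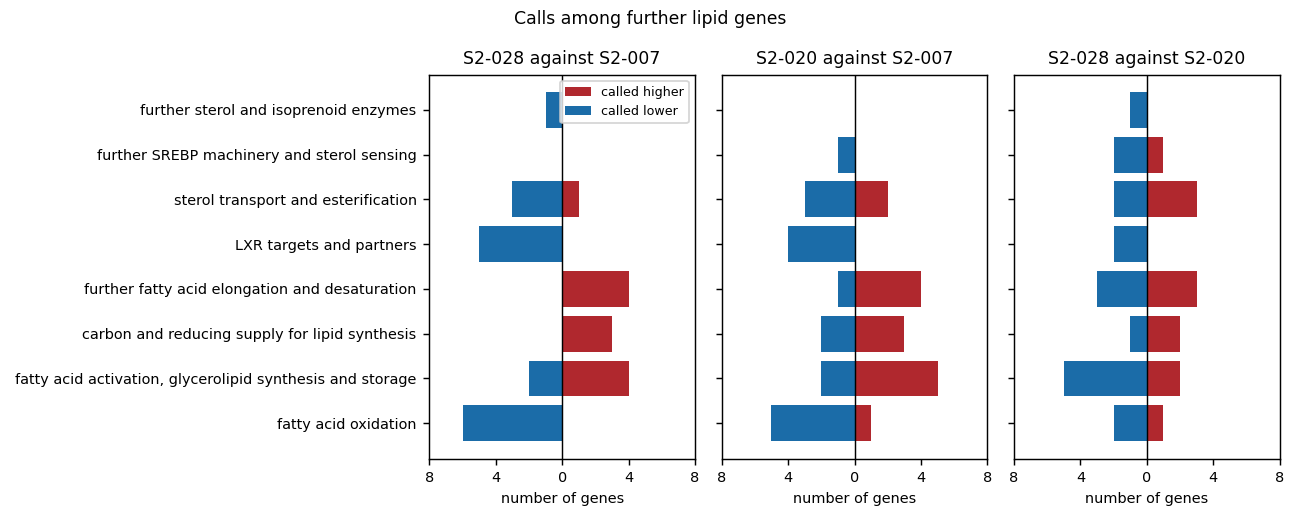
Number of genes called higher (bars to the right) and lower (bars to the left) in each of 8 further lists of lipid genes, 1 panel per comparison. LXR targets and partners have calls on the lower side alone, and fatty acid oxidation has 6 lower and 0 higher in S2-028 against S2-007.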

How the data were processed

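The authors deposited a table of whole-number read counts per gene for 9 libraries, together with 18 columns of normalized signal that were not used here. Per the paper and the submitters' processing notes, poly(A) RNA was made into strand-specific libraries, reads were trimmed with Trimmomatic 0.39 and aligned with BWA 0.7.17 to GRCh38.p14. The counting tool is not given in the sources used here. Since BWA makes no spliced alignments, junction reads may be missing from the counts. A further 2 lines of the table, which name no gene, were left out.

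Counts were tested in R 4.3.3 with edgeR 4.0.16 (TMM, filterByExpr at a count of 10 and a total of 15, quasi-likelihood F-test), using the 6 libraries of each pair of lines. A call required a Benjamini-Hochberg adjusted p under 0.05 over all genes tested and about a 1.5-fold difference. The labels name no batch. Per gene, the chi-square statistic between libraries did not go below 7.95 within a line or 205 between lines, so no library was taken as deposited more than once. On simulated counts for S2-028 against S2-007, 83.6% of genes changed by 1 on the log2 scale were recovered over 26371 genes. Levels per kilobase used the transcript lengths of GENCODE. Gene identifiers were matched to RefSeq for 42497 of 42717 genes (99.5%). Alternatives were DESeq2 1.42.0, a likelihood ratio test, upper-quartile normalization, other filters, all 9 libraries in 1 fit, a replicate block, a test against a 1.5-fold change and leaving out each library.

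The members and the further lists were chosen with earlier results of these data known. All of the 34 genes are reported, with the value in each library for those called at least once. Of each further list, at most 2 called genes per comparison are named, those with the smallest adjusted p. Values of some genes of the further lists are not reported here.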

Additional observations from a re-analysis of the deposited data

How the results depend on the processing

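Of 28 called differences, 13 kept their call under every alternative and 20 under every alternative except the test against a 1.5-fold change, and none changed direction. That test, which asks for more than a 1.5-fold change, lowered the number of the 34 genes called higher to 1 in S2-028 against S2-007, 3 in S2-020 against S2-007 and 1 in S2-028 against S2-020. Those called lower fell to 3 in S2-028 against S2-007, 3 in S2-020 against S2-007 and 2 in S2-028 against S2-020. The same test lowered the calls over all genes from 4858 to 2977, from 5769 to 3639 and from 5788 to 3638 in the same order, by its construction. With upper-quartile normalization 2 of the 34 were lower in S2-028 against S2-020, since PMVK (-0.54), MVD (-0.57) and LSS (-0.53) fell under the fold threshold, and without 1 library 3 to 5, with 3 without S2-028 replicate 3 or S2-020 replicate 3. Upper-quartile normalization also ended the call of INSIG1 in S2-020 against S2-007 (0.58), and a minimum of 10 counts in every library that of LSS in S2-028 against S2-020 (-0.58). The cause was not tested.

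Values that changed sign were small or rested on S2-028 replicate 2. With 1 library left out, the log2 fold change of S2-028 against S2-007 ranged from -0.22 to 0.73 for INSIG1, -0.17 to 0.12 for HMGCS1, -0.0339 to 0.19 for SQLE, -0.0109 to 0.0966 for ACLY and -0.0618 to 0.0126 for FASN. That of S2-028 against S2-020 ranged from -0.83 to 0.11 for INSIG1, -0.0697 to 0.20 for HMGCS1, -0.0223 to 0.39 for HSD17B7 and -0.11 to 0.12 for FADS2. That of S2-020 against S2-007 ranged from -0.0308 to 0.0865 for IDI1, -0.0350 to 0.0879 for MVD, -0.0234 to 0.10 for MYLIP and -0.0630 to 0.0379 for SC5D. DESeq2 gave -9.89e-04 for FADS2 in S2-028 against S2-020, -9.51e-04 for HMGCS1 in S2-028 against S2-007 and 0.0181 for SC5D in S2-020 against S2-007, where the fit of all 9 libraries gave 0.0183. With no filter FADS2 was at -0.00720 in S2-028 against S2-020. In S2-020 against S2-007, upper-quartile normalization gave -0.0133 for IDI1 and -0.00659 for MVD, and a minimum of 10 counts in every library gave -0.0121 for IDI1 and -0.00588 for MVD.

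Libraries that share a replicate number did not deviate together, with correlations from -0.02 to 0.01 for same-numbered pairs and from -0.02 to 0.03 for others. No pairing by number was thus seen in the counts. Whether same-numbered libraries were handled together cannot be told from these values. With a replicate block, HMGCS1 was at -0.00568 in S2-028 against S2-007, MVD was called there at -0.59, and the calls over all genes were 4865, 5650 and 5716. The smallest library held 60328748 counts, and every one of the 34 genes passed the filter in each comparison.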
